A study of Mus musculus with 7 samples.

Results

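The 8 mouse genes Slc22a3, Slc22a4, Slc22a5, Slc22a15, Slc22a17, Slc22a18, Slc22a21 and Slc22a23 were examined in C2C12 myotubes, out of 26607 genes listed. They were taken by symbol as members of the SLC22 family of solute carriers, and all 8 symbols were listed. They were selected on the EPS and control CPM of these same 7 libraries, in that the choice was made with the results of this comparison known. The EPS and control values of these genes are therefore a description and carry no p-value. C2C12 is an established mouse myoblast line whose cells fuse into contractile myotubes. The cells were differentiated for 3 days in 2% serum. The EPS group received electrical pulse stimulation, which makes myotubes contract in the dish, for 24 h at 1 Hz with a rest of 1 h before RNA was taken, and the control group was left unstimulated. RNA-seq was performed on 3 control libraries, numbered 1, 3 and 4, and 4 EPS libraries, numbered 1 to 4. All 7 libraries are from 1 cell line without nerve, vessels or other tissue, and nothing in the labels says whether they came from separate cultures, so the spread between libraries may be technical.

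SLC22 proteins are membrane carriers of organic cations, organic anions and zwitterions. The OCTN branch, to which Slc22a4, Slc22a5 and Slc22a21 belong, is known for moving carnitine and related zwitterions such as ergothioneine. Carnitine carries long-chain fatty acids into mitochondria, and muscle takes most of its carnitine up from the blood because it makes little itself. Loss of the carnitine carrier encoded by Slc22a5 is known to cause systemic carnitine deficiency with muscle and heart disease. Slc22a3 encodes an organic cation transporter of low affinity and high capacity. Slc22a17 encodes a receptor for lipocalin-2, and the substrates of Slc22a15, Slc22a18 and Slc22a23 are less well defined.

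Levels are given as CPM, which scale the reads of a gene to a common total over all genes of a library. Library totals were 16616917 to 22120641 reads in the control group and 18830229 to 21892568 in the EPS group, at which 3 reads correspond to 0.136 to 0.181 CPM. Control replicate 4 stood apart from the others, with 359 genes at 1 to 5 reads against 2670 to 3181 and with 14014 genes above 0 against 16144 to 16984. Where a value moved most with this library, it is also given without it. Of 8 myotube markers, Mymk was not listed, and the summed level of the other 7 was 15918 to 19155 CPM in control and 10713 to 16759 CPM in EPS libraries. By limma 0 of the 7 were called and 0 reached an unadjusted p under 0.05, with 6 lower in EPS by log2 fold change and a median of -0.44, or -0.24 without control replicate 4. Both edgeR's quasi-likelihood test and DESeq2 called 1 lower, Myog, which was at 473, 565 and 1794 CPM in control replicates 1, 3 and 4 and at 278 to 605 CPM in EPS libraries. The Myog mean was 2.41-fold higher in control than in EPS with control replicate 4 and 1.32-fold higher without it. Of all genes tested, 11.6% reached an unadjusted p under 0.05 by limma, and 3.29% were called by edgeR's quasi-likelihood test and 3.06% by DESeq2. The summed level of 6 proliferation markers was 223 to 311 CPM in control and 352 to 1025 CPM in EPS libraries, and 0 of the 6 were called by limma, with 5 at an unadjusted p under 0.05 (11.6% of all genes), against 2 called by edgeR's quasi-likelihood test and by DESeq2 and 4 by edgeR's exact test. Adipocyte markers were at 3 reads or fewer in every library, with Plin1, Lep and Cidec at 0. The summed level of 6 fibroblast markers was 5627 to 9041 CPM in control and 5269 to 7070 CPM in EPS libraries, and most of it was collagen. By limma 0 of the 6 were called, with 5 lower in EPS by log2 fold change. Their median was -0.28, or -0.54 without control replicate 4. An unadjusted p under 0.05, as in 11.6% of all genes, was reached by 2, Pdgfra and Lum. Pdgfra was higher in every EPS library, with means of 18.9 CPM in control and 30.3 CPM in EPS. Lum had means of 4.59 and 2.13 CPM, and edgeR's quasi-likelihood test and DESeq2 called it lower. Dcn had means of 94.6 and 56.8 CPM, with a log2 fold change of -0.89, or -1.11 without control replicate 4. Summed osteoblast markers were at 38.9 to 77.9 CPM in control and 62.5 to 78.3 CPM in EPS libraries, nearly all of it Runx2, with Bglap and Alpl at 3 reads or fewer and Ibsp at 0, and macrophage and endothelial markers summed to at most 2.23 CPM. The part of the proliferating, myotube and fibroblast markers in the results was not tested. In bulk RNA, a change in the number of cells that express a gene and a change in RNA per cell cannot be told apart.

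Slc22a23 and Slc22a4 were the members that were called. A call required P under 0.01, unadjusted, together with a change of over 2-fold, in a limma fit of log2(CPM + 1) over 19144 genes above 0. Of all genes tested, 269, or 1.41%, were called, 185 of them higher in EPS, or 0.966%, and 84 lower, or 0.439%. Without control replicate 4 the share was 1.09%, and 1 member was called. Of the 7 members tested, 2 were called higher and 0 lower, and 0 reached an adjusted p under 0.05 by limma, which 27 genes or 0.141% of all tested did. By edgeR's quasi-likelihood test 2 members reached it, with 1.51% of all genes, and by DESeq2 2 members, with 3.39% of all genes that DESeq2 adjusted. All EPS libraries lay above all control libraries for 2 members and for 7.76% of all genes, and below them for 0 members and 2.85% of all genes, so that 10.6% of all genes did not overlap. The median log2 fold change was 0.21 over the 7 members and 0.041 over all genes tested. The comparison was used to choose the members, so nothing is read from these counts.

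The study used a primer pair for each of these genes in quantitative PCR, shown here because they mark the parts of the transcripts that such a measurement reads. They are written 5′ to 3′ in lower case and located on GRCm38 with the GENCODE M21 transcripts. The Slc22a23 pair lies at chr13:34193394-34195347 on the minus strand, in exons 7 and 8 of 11, and spans 129 bases of the transcript. The Slc22a4 pair lies at chr11:53992004-53996017 on the minus strand, in exons 5 and 6 of 10, and spans 136 bases. Each pair matched transcripts of its own gene and of no other.
Slc22a23 forward: gtctggtagtcaagttcctcgg
Slc22a23 reverse: ctgagtctggatgctggctgta
Slc22a4 forward: gccgcaaagatgaacagcatcg
Slc22a4 reverse: cggttatggtggcaatgttccg

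Slc22a23 was at 17.6, 14.5 and 7.37 CPM in control replicates 1, 3 and 4 and at 36.5, 50.9, 57.3 and 76.6 CPM in EPS replicates 1 to 4. The lowest EPS library was above the highest control library. The counts behind these levels were 163 to 302 reads in control and 785 to 1442 reads in EPS libraries. The mean was 13.2 ± 5.25 CPM (SD, n = 3) in control and 55.3 ± 16.6 CPM (SD, n = 4) in EPS, a 4.21-fold ratio. The log2 fold change of CPM + 1 was 2.02 with an SE of 0.32 and a 95% interval of 1.29 to 2.76, and it ranked 21 of the 185 genes called higher. Without control replicate 4, the lowest of the 7 libraries for this gene, the difference was 1.68 with an SE of 0.27, the ratio of means was 3.45 and the gene was still called. Slc22a23 (ENSMUSG00000038267.15) spans chr13:34179158-34345182 on the minus strand of GRCm38.

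Slc22a4, the OCTN1 gene whose product is known as an ergothioneine carrier, was at 2.33, 3.01 and 0.542 CPM in control replicates 1, 3 and 4. It was at 3.91, 9.89, 6.67 and 10.8 CPM in EPS replicates 1 to 4. The groups did not overlap, although EPS replicate 1 lay close to control replicate 3. These levels rest on 12 to 50 reads in control and 84 to 204 reads in EPS libraries. The mean was 1.96 ± 1.27 CPM (SD, n = 3) in control and 7.83 ± 3.16 CPM (SD, n = 4) in EPS, a 3.99-fold ratio. The log2 fold change of CPM + 1 was 1.61 with an SE of 0.43 and a 95% interval of 0.64 to 2.57, at rank 47 of the 185 called higher. Control replicate 4 was the lowest library, with 12 reads. Without it the log2 fold change was 1.19 with an SE of 0.38, the ratio of means was 2.93, and the gene was no longer called, while the groups still did not overlap. The call was also lost without EPS replicate 2 or EPS replicate 4.

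**Figure D1:**
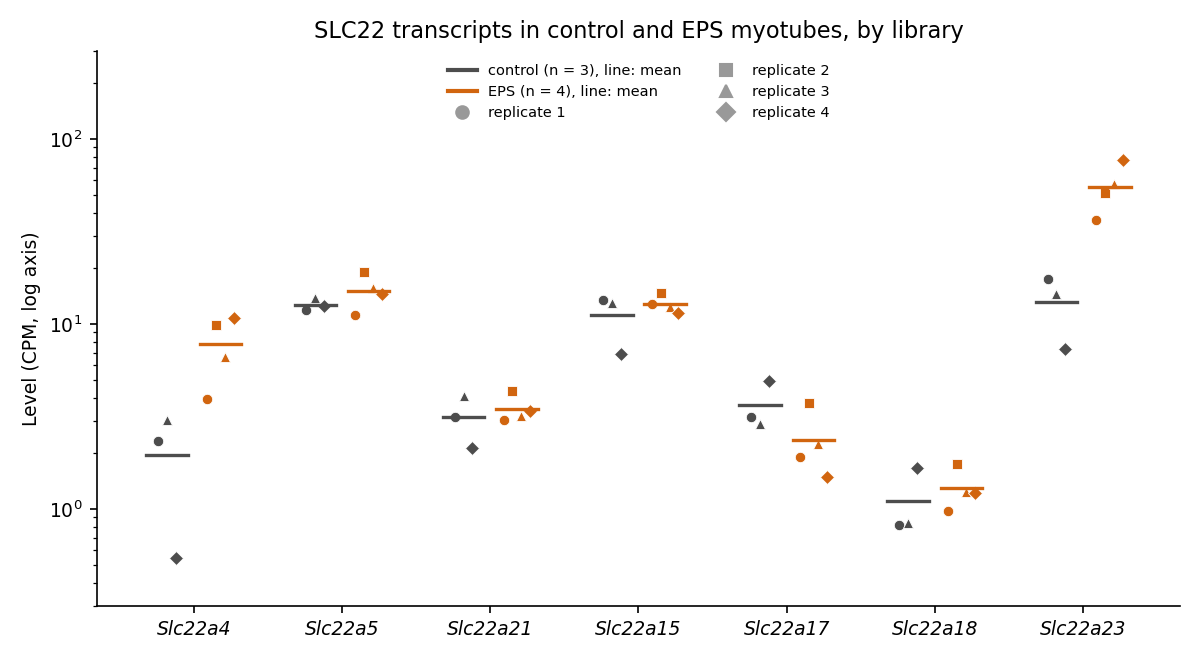
Level of the 7 SLC22 members detected in each library, as CPM on a log axis, with control libraries in grey, EPS libraries in orange, a marker shape for each replicate number and a line at the group mean. Slc22a23 and Slc22a4 have every EPS library above every control library, and the other 5 members overlap between the groups.

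The remaining OCTN genes did not separate the groups. Slc22a5, which encodes the high-affinity carnitine carrier OCTN2, was at 11.9, 13.8 and 12.5 CPM in control replicates 1, 3 and 4 and at 11.2, 19.0, 15.6 and 14.5 CPM in EPS replicates 1 to 4. EPS replicate 1 was the lowest of all libraries and the other EPS libraries were the highest. The mean was 12.7 ± 0.961 CPM (SD, n = 3) in control and 15.1 ± 3.25 CPM (SD, n = 4) in EPS, with a log2 fold change of 0.21 (SE 0.22, and 95% interval -0.30 to 0.71). It was 0.093 without EPS replicate 2 and 0.33 without EPS replicate 1. Slc22a21, a rodent gene also known as Octn3, was at 3.15, 4.09 and 2.12 CPM in control and at 3.03, 4.34, 3.20 and 3.40 CPM in EPS libraries. Its log2 fold change was 0.14 with an SE of 0.25 and became -0.04 without control replicate 4, so its sign rested on that library.

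Slc22a4, Slc22a21 and Slc22a5 lie side by side on the minus strand of chromosome 11. They span chr11:53983123-54028090, chr11:53949965-53980332 and chr11:53864542-53891660, within 163.55 kb in all, with 2.79 kb between Slc22a4 and Slc22a21 and 58.304 kb between Slc22a21 and Slc22a5. The coding sequences of Slc22a5 and Slc22a21 were 90.5% identical, those of Slc22a4 and Slc22a5 77.2%, and those of Slc22a4 and Slc22a21 75.3%. All other pairs of members were 55.4 to 64.9% identical. Slc22a5 and Slc22a21 shared 407 windows of 100 bases, the read length, which is 13.7% of the windows of Slc22a5 and 12.1% of those of Slc22a21, so reads from the shared stretches could be counted on either gene. The reads were sequenced in pairs, which this count of single windows does not take into account. Slc22a4 shared none with any gene. Summed over Slc22a5 and Slc22a21, the level was 15.9 ± 1.76 CPM (SD, n = 3) in control and 18.6 ± 3.78 CPM (SD, n = 4) in EPS, and the groups overlapped.

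Within single libraries, the ratio of Slc22a4 to each of its OCTN neighbours did not overlap between the groups. For each read of Slc22a5 there were 0.196, 0.218 and 0.0433 reads of Slc22a4 in control replicates 1, 3 and 4 and 0.35 to 0.747 in EPS libraries. For each read of Slc22a21 there were 0.741, 0.735 and 0.255 reads of Slc22a4 in control replicates 1, 3 and 4 and 1.29 to 3.19 in EPS libraries. The lowest value of both ratios is that of control replicate 4, with 12 reads of Slc22a4, and without it the control values lie close together. Per transcript length, Slc22a4 was above Slc22a21 in 2 of 3 control libraries and 4 of 4 EPS libraries. The ratio of Slc22a21 to Slc22a5 overlapped, at 0.17 to 0.297 in control and 0.205 to 0.271 in EPS libraries. These ratios do not depend on library totals. Like the levels, they are a description of the libraries on which the members were selected.

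The 250 bases before the annotated start of both called members and of Slc22a5 are shown because these windows adjoin the genes with the largest and with a small difference between the groups. They are from RefSeq on GRCm38.p6, written 5′ to 3′ along the minus strand, with GCGTG or its reverse complement CACGC in capitals. The windows are chr11:54028105-54028354 for Slc22a4, chr13:34345219-34345468 for Slc22a23 and chr11:53891704-53891953 for Slc22a5. For each of these genes the RefSeq start lies upstream of the GENCODE M21 start, and the bases after it were not found in a GENCODE transcript of the gene.
Slc22a4: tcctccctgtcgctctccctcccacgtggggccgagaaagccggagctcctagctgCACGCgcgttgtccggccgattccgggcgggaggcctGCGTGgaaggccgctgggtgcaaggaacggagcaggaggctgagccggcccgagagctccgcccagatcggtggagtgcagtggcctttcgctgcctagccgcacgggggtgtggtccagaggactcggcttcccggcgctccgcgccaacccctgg
Slc22a23: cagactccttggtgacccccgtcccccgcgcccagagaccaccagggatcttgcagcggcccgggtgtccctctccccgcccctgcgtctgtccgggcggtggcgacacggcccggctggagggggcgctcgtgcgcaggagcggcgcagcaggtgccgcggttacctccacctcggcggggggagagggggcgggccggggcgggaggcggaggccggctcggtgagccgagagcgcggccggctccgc
Slc22a5: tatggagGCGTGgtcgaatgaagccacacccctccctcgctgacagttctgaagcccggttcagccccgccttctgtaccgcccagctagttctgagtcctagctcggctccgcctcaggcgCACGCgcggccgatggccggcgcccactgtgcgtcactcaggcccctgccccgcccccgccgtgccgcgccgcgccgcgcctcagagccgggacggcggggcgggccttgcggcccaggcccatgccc

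The G and C content of these windows was 71.2% for Slc22a4, 78.4% for Slc22a23 and 73.6% for Slc22a5, against a median of 52% over 27025 promoters. Promoters were found for 7 members, and the other 4 of these were at 66.8% for Slc22a15, 53.6% for Slc22a17, 52.8% for Slc22a18 and 51.2% for Slc22a3. Motifs were searched on both strands from 250 bases before to 50 after the start. GCGTG, the core of the xenobiotic response element, was found at 4 places for Slc22a4, 2 for Slc22a5 and 1 for Slc22a15, and 32.5% of all promoters hold it. The antioxidant response element core TGACNNNGC, held by 12.5% of all promoters, the E-box form CAGCTG, held by 16.1%, and the DR1 type of PPAR response element, held by 0.0444%, were not found in the window of any member. Other forms of the E-box were not searched, and the windows shown above hold cacgtg for Slc22a4 and caggtg for Slc22a23. With GCGTG the only motif found, no motif overlapped another. Slc22a23, with the larger fold change, held none of the 4 motifs in this window, which says only that these letters are not there.

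Slc22a15 encodes a carrier of the family with a broad tissue distribution. It was at 13.5, 13.1 and 6.92 CPM in control replicates 1, 3 and 4 and at 12.8, 14.8, 12.4 and 11.4 CPM in EPS replicates 1 to 4. The groups overlapped, with control replicate 4 the lowest library. The log2 fold change was 0.23 with an SE of 0.27, and it was -0.05 without control replicate 4, so its sign also rested on that library. Slc22a15 (ENSMUSG00000033147.16) spans chr3:101855776-101924453 on the minus strand. For each read of Slc22a15 there were 1.07 to 1.31 reads of Slc22a23 in control and 2.86 to 6.71 in EPS libraries.

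Slc22a17, the lipocalin-2 receptor gene, was the only member tested with a lower mean in EPS. It was at 3.15, 2.89 and 4.93 CPM in control replicates 1, 3 and 4 and at 1.91, 3.75, 2.24 and 1.49 CPM in EPS replicates 1 to 4. EPS replicate 2 lay inside the control range and the other EPS libraries lay below it. The log2 fold change was -0.49 with an SE of 0.29 and was not called, and its size moved from -0.68 to -0.31 as single libraries were left out. These levels rest on 28 to 109 reads. The gene lies at chr14:54906304-54913132 on the minus strand.

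Slc22a18, an imprinted gene of the Cdkn1c and Kcnq1 domain, was detected at 14 to 37 reads. It was at 0.816, 0.843 and 1.67 CPM in control replicates 1, 3 and 4 and at 0.978, 1.75, 1.23 and 1.22 CPM in EPS replicates 1 to 4. Control replicate 4 was 1 of the 2 highest libraries, and without it every EPS library was above the control libraries, with a log2 fold change of 0.32 (SE 0.16) in place of 0.14 (SE 0.19). Leaving out control replicate 1, control replicate 3 or EPS replicate 2 gave 0.039, 0.049 and 0.044 instead. The gene spans chr7:143473736-143499334 on the plus strand. Slc22a3, at chr17:12418960-12507704 on the minus strand, had 0 reads in all 7 libraries, which allows a level of up to 0.136 to 0.181 CPM by library, for counting error only.

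**Figure D2:**
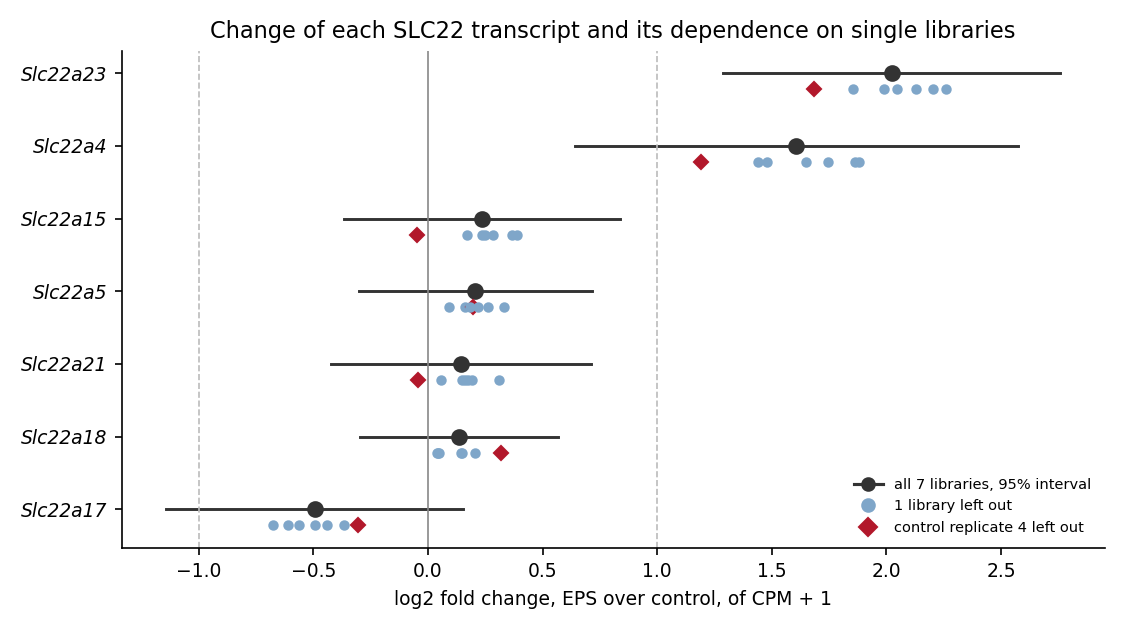
Log2 fold change of CPM + 1, EPS over control, of the 7 members tested, as a black point with its 95% interval, and below it the value with 1 library left out, in blue, or with control replicate 4 left out, as a red diamond. Dashed lines mark 2-fold. Slc22a23 stays above the 2-fold line at 1.68 to 2.26 and Slc22a4 at 1.19 to 1.88, while Slc22a15 and Slc22a21 move to the other side of 0 without control replicate 4.

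Control replicate 4 was the lowest control library for 4 of the 7 members detected, Slc22a4, Slc22a21, Slc22a15 and Slc22a23, and the highest for Slc22a17 and Slc22a18. EPS replicate 2 was the highest EPS library for 5 of the 7, and EPS replicate 1 was the lowest EPS library for 5 of the 7. EPS replicate 4 was the highest for Slc22a4 and Slc22a23 alone. It also had the highest sum of proliferation markers, at 1025 CPM, against 740, 352 and 484 CPM in EPS replicates 1 to 3. EPS replicate 1, with the next highest sum, had the lowest EPS level of both genes. EPS replicate 2, with the lowest sum, had Slc22a4 at 9.89 CPM and Slc22a23 at 50.9 CPM. The part of proliferation in the levels of both genes was not tested.

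To compare members with each other, CPM were divided by the length of the longest coding transcript. In control libraries the order by mean was Slc22a5 at 4.16 ± 0.314 CPM per kb, Slc22a23 at 2.11 ± 0.84, Slc22a15 at 1.70 ± 0.558, Slc22a17 at 1.56 ± 0.474, Slc22a21 at 0.902 ± 0.284, Slc22a4 at 0.867 ± 0.563 and Slc22a18 at 0.728 ± 0.319 CPM per kb (SD, n = 3). Slc22a5 stood above the rest in every control library, and Slc22a17 stood above Slc22a21 in range, at 1.23 to 2.11 against 0.614 to 1.18 CPM per kb, but over all annotated exons this pair overlapped, at 0.64 to 1.09 against 0.583 to 1.12 CPM per kb. The other neighbours in this order overlapped in range. Slc22a4 was above Slc22a21 in 2 of 3 control libraries, all but control replicate 4, so the order of this pair by mean rested on that library. In EPS libraries the order was Slc22a23 at 8.85 ± 2.66 CPM per kb, Slc22a5 at 4.92 ± 1.06, Slc22a4 at 3.46 ± 1.397, Slc22a15 at 1.95 ± 0.213, Slc22a21 at 1.01 ± 0.169, Slc22a17 at 1.00 ± 0.421 and Slc22a18 at 0.85 ± 0.214 CPM per kb (SD, n = 4). Slc22a23 was above Slc22a5 within 4 of 4 EPS libraries and 0 of 3 control libraries, whichever of the 2 transcript lengths was used. The order of the lower members depended on the length used, which for Slc22a15 is 6573 bases in its longest coding transcript and 14239 over all annotated exons, and for Slc22a17 2340 and 4517 bases.

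The summed level of all members was 12.0 ± 1.45 CPM per kb (SD, n = 3) in control and 22.05 ± 4.72 CPM per kb (SD, n = 4) in EPS libraries. Slc22a23 made up 17.2% ± 5.54 of the control sum and 39.9% ± 6.24 of the EPS sum. The share of Slc22a4 was 6.88% ± 4.08 in control and 15.2% ± 3.42 in EPS, and that of Slc22a5 was 34.9% ± 4.28 in control and 22.5% ± 2.92 in EPS. The level of Slc22a5 itself overlapped between the groups, so its smaller share comes with the larger sum.

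**Figure D3:**
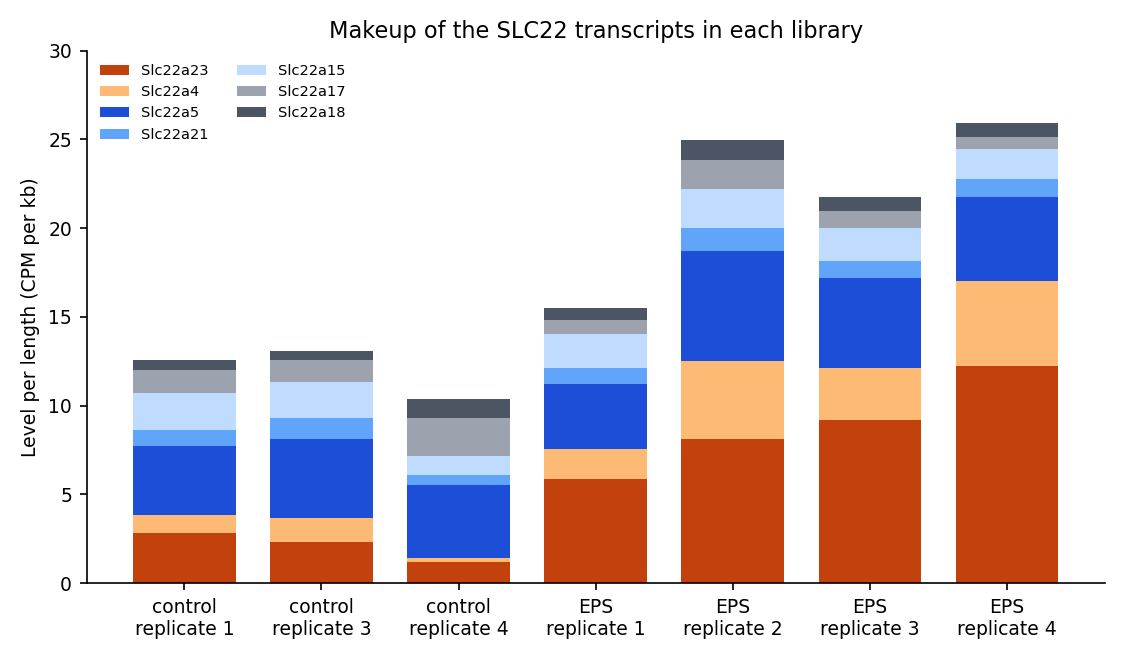
Level per transcript length, in CPM per kb of the longest coding transcript, of the SLC22 members stacked for each of the 7 libraries. The stacks reach 10.4 to 13.1 CPM per kb in control and 15.5 to 25.9 CPM per kb in EPS libraries, and the Slc22a23 block is larger than the Slc22a5 block in each EPS library and smaller in each control library.

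The rest of the family was at 0 to 9 reads in every library. Of 26 listed genes with an Slc22a symbol, 15 had a read in some library, 8 exceeded 3 reads in a library and 7 had a mean of at least 1 CPM, which were the 7 members detected. The eighth over 3 reads was Slc22a13b, a gene of neither list, with 1 to 7 reads in control and 4 to 9 reads in EPS libraries, or at most 0.419 CPM. The 17 other SLC22 genes examined held 10 at 0 reads in every library, among them Slc22a6 and Slc22a8, known as kidney organic anion transporter genes. The remaining 7 had 3 reads or fewer in every library.

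Carnitine uptake is followed by its transfer to fatty acids, and genes of that route were examined beside the members. The choice of members had not used them, but this list was also made with earlier results of these data known. Of 10 genes, Tmlhe was not listed and Bbox1, the last enzyme of carnitine synthesis, had 0 reads. All 8 tested had a positive log2 fold change, as did 63.3% of all genes. Their median was 0.29, against 0.041 over all genes and 0.10 over genes with a mean of at least 1 CPM, and 0 were called by limma, edgeR or DESeq2. By edgeR's exact test 1 of the 8 reached an adjusted p under 0.05, and by limma, edgeR's quasi-likelihood test and DESeq2 0 did. Without control replicate 4 the median was 0.18, with all 8 still higher. At an unadjusted p under 0.05, which 11.6% of all genes reached, limma gave 2 of the 8, Cpt1a and Cpt2. Cpt1a, the liver-type enzyme that joins acyl groups to carnitine at the outer mitochondrial membrane, was at 58.4, 58.9 and 43.9 CPM in control and 89.7, 76.0, 87.3 and 113 CPM in EPS libraries. The groups did not overlap, and the log2 fold change was 0.76 with an SE of 0.18 (limma adjusted p = 0.146, exact two-sided permutation p = 0.0286, the smallest that 35 splits allow). Cpt2, the enzyme of the inner membrane, was at 28.2, 33.6 and 26.5 CPM in control and 35.6, 41.5, 35.6 and 40.3 CPM in EPS libraries, with a log2 fold change of 0.37 (SE 0.15, limma adjusted p = 0.399). Without control replicate 4 its log2 fold change was 0.30, with an unadjusted limma p of 0.0954. For Cpt1a these were 0.62 and 0.00794. Crat, carnitine acetyltransferase and the most abundant of the list, was at 80.4 ± 7.76 CPM (SD, n = 3) in control and 92.9 ± 6.26 CPM (SD, n = 4) in EPS and overlapped. Cpt1b, the muscle-type enzyme, had 3 reads or fewer in every library. Cpt1a, Cpt2 and Cpt1b were named after their values were seen.

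Genes of other carriers and of PPAR receptors, which are known to control OCTN and Cpt1 genes in other settings, were listed in the same way. Of 11 cation and choline carrier genes tested, 0 were called by limma, edgeR or DESeq2 and 0 reached an unadjusted p under 0.05 by limma. Their log2 fold changes had a median of 0.06 by limma, 0.02 by limma without control replicate 4, 0.46 by edgeR's quasi-likelihood test and 0.44 by DESeq2, so its size depended on the tool. The most abundant were the choline carrier genes Slc44a2, at 367 ± 56.5 CPM (SD, n = 3) in control and 330 ± 45.7 CPM (SD, n = 4) in EPS, and Slc44a1, at 139 ± 12.8 CPM and 146 ± 13.3 CPM. Of 6 PPAR and RXR genes, 0 were called by limma, edgeR or DESeq2 and 0 reached an unadjusted p under 0.05 by limma. Ppard, the PPAR delta gene, was at 41.0, 37.9 and 29.4 CPM in control and 43.8, 42.9, 46.5 and 68.7 CPM in EPS libraries, so every EPS value was above the control values, with a log2 fold change of 0.46 (SE 0.21, limma adjusted p = 0.444, exact two-sided permutation p = 0.0857). It was named after its values were seen. Rxra was at 68.1 ± 17.3 CPM in control and 80.4 ± 19.1 CPM in EPS. Rxrb was at 44.1, 40.3 and 120 CPM in control replicates 1, 3 and 4 and at 39.9 to 49.1 CPM in EPS libraries, and its log2 fold change was -0.41 with control replicate 4 and 0.09 without it.

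The nearest protein-coding genes on each side of each member were examined as genes that share the position of a member and not its family. Of 25 neighbours that are no members, 18 were tested. By limma 0 were called and 4 reached an unadjusted p under 0.05, as did 11.6% of all genes. The tests on recovered reads each called 2, Cdkn1c and Plg, where 3.29% of all genes were called by edgeR's quasi-likelihood test and 3.06% by DESeq2. The median log2 fold change was 0.01 by limma, -0.08 by edgeR's quasi-likelihood test and -0.09 by DESeq2, so it had no settled sign. Psmg4, a proteasome assembly factor gene that ends 984 bases from Slc22a23 on the opposite strand, was at 6.76, 9.03 and 8.54 CPM in control and 14.01, 17.2, 10.4 and 15.9 CPM in EPS libraries. Its groups did not overlap, and the log2 fold change was 0.74 with an SE of 0.24 (limma adjusted p = 0.275, exact two-sided permutation p = 0.0571). Tubb2b, a beta-tubulin gene 48691 bases from Slc22a23, lay below control in every EPS library, at 229 ± 61.7 CPM in control and 153 ± 6.36 CPM in EPS (log2 fold change -0.55, SE 0.19, limma adjusted p = 0.294), or -0.35 without control replicate 4. Beside the OCTN genes, Pdlim4, P4ha2, Irf1 and Gm12216 all overlapped between groups. Psmg4 and Tubb2b were named after their values were seen.

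**Figure D4:**
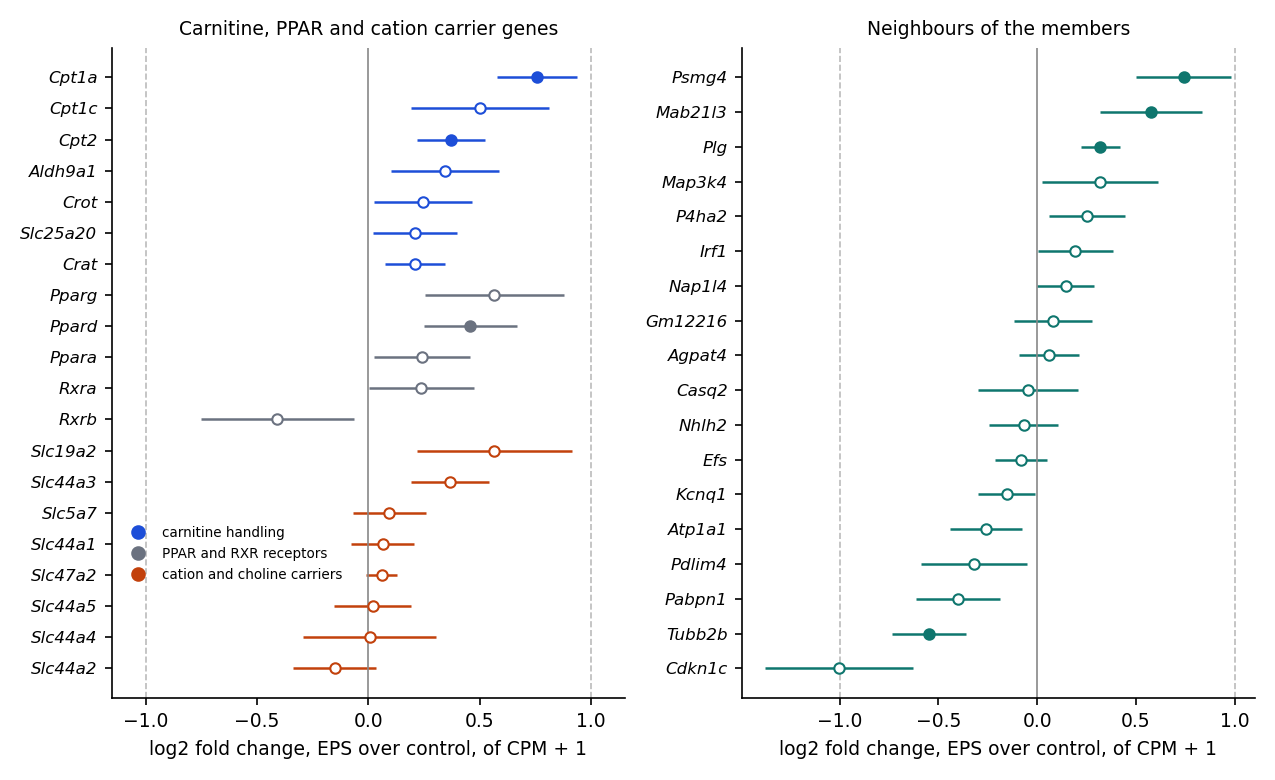
Log2 fold change of CPM + 1, EPS over control, with its SE, of carnitine handling, PPAR and RXR, and cation and choline carrier genes at left and of neighbours of the members at right, for genes with more than 3 reads in some library. Filled points mark genes whose groups do not overlap, open points those that do, and dashed lines mark 2-fold. No point of the left panel passes 2-fold, and Cpt1a is the highest there at 0.76.

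The imprinted domains around Slc22a18 and Slc22a3 were also examined. Of 9 genes tested around Slc22a18, 0 were called by limma and 2 reached an unadjusted p under 0.05, against 11.6% of all genes, while edgeR and DESeq2 each called 1, Cdkn1c. The log2 fold change was negative for 7 of the 9, with a median of -0.30 by limma, which was -0.04 without control replicate 4 and -0.66 by edgeR's quasi-likelihood test. The most abundant was Cd81, at 227, 197 and 622 CPM in control replicates 1, 3 and 4 and 176 to 318 CPM in EPS libraries. Its log2 fold change was -0.30 with an SE of 0.39. Tnfrsf23, the next, was higher by mean in EPS, at 109 ± 40.4 CPM in control and 134 ± 12.7 CPM in EPS (log2 fold change 0.36, SE 0.26), and overlapped. Cdkn1c, a cell cycle inhibitor gene 12685 bases from Slc22a18, was at 25.4, 42.9 and 75.04 CPM in control and 34.7, 17.5, 17.4 and 19.1 CPM in EPS libraries (log2 fold change -1.002, SE 0.37, limma adjusted p = 0.338). Without control replicate 4 its log2 fold change was -0.62. Its groups overlapped through EPS replicate 1 and control replicate 1. Cars, a cysteinyl-tRNA synthetase gene, was lower in every EPS library, at 74.4 ± 16.6 CPM (SD, n = 3) in control and 43.9 ± 5.87 CPM (SD, n = 4) in EPS, by -0.73 on the log2 scale (SE 0.19, limma adjusted p = 0.177). Near Slc22a3, the noncoding RNA Airn, known for silencing Igf2r on the paternal chromosome, was at 1.63, 2.53 and 1.99 CPM in control and 0.931, 0.39, 0.594 and 0.69 CPM in EPS libraries. The groups did not overlap and the log2 fold change was -0.88 with an SE of 0.17 (limma adjusted p = 0.0946), and edgeR and DESeq2 called the gene lower, while Igf2r overlapped at 154 ± 55.2 CPM in control and 111 ± 32.9 CPM in EPS. Plg, whose exons overlap those of Slc22a3 by 420 bases on the opposite strand, had 0 reads in each control library and 1, 4, 8 and 8 reads in EPS replicates 1 to 4. Cdkn1c, Cars and Plg were named after their values were seen.

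Genes with the most similar pattern to each member were found by Pearson's r of log2(CPM + 1) over the 7 libraries, among 12255 genes with a mean of at least 1 CPM. The 7 points include both groups and share library totals, so r is a description. For Slc22a23 the closest were Ankrd33b (r = 0.984), Sorbs3 (r = 0.984) and Hspa4l (r = 0.983), and 42 genes exceeded 0.95. For Slc22a4 they were Zbtb24 (r = 0.994), Sorbs3 (r = 0.986) and Ptx3 (r = 0.985), and 62 genes exceeded 0.95. Sorbs3, which encodes the adhesion adaptor vinexin, was thus near both, at 47.1 CPM in control and 67.6 CPM in EPS by mean. For Slc22a5 the closest was Slc5a5 (r = 0.992), the sodium iodide symporter gene, at 1.77 CPM in control and 4.26 CPM in EPS, and for Slc22a17 it was Gpx3 (r = 0.993), a secreted glutathione peroxidase gene, at 121 and 65.2 CPM. The closest to Slc22a21, Slc22a15 and Slc22a18 were Mterf (r = 0.996), Smcr8 (r = 0.998) and BC029722 (r = 0.997).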

How the data were processed

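RNA-seq was measured in 7 libraries of C2C12 myotubes, 3 control and 4 EPS, grouped by their labels. Per the labels, poly(A) RNA was made into directional libraries, and the submitters' processing notes name STAR 2.5.4b and GRCm38. The read counter, its annotation, its use of strand and its treatment of multi-mapped reads are not given in the sources used here. The authors deposited CPM per gene symbol, not log-transformed. All values gave whole reads (100%, tolerance 0.05), so counts were recovered.

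The 19144 genes above 0 in some library were put on a log2(CPM + 1) scale and fitted with limma 3.58.1 in R 4.3.3 (empirical Bayes with a trend, Benjamini-Hochberg adjustment over all of them). Genes outside the members also had an exact two-sided permutation test over 35 splits. edgeR 4.0.16 and DESeq2 1.42.0 on recovered counts, pseudocounts, filters, scalings, the replicate block and leaving out each library were alternatives. The fit was tested on simulated data. Symbols were matched to GENCODE M21 for 22467 of 26607 genes.

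The members and gene lists were chosen with earlier results of these data known. Named from each list were called genes, the 2 highest by mean CPM and those at 0, with exceptions stated, and the 3 most similar genes per member.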

Additional observations from a re-analysis of the deposited data

Results flagged for a closer look

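Of 45 genes examined for a library far from the other 3 of the EPS group, 3 had one, and chance gives about 1 in 20. None was an SLC22 member. Cdkn1c was at 34.7 CPM in EPS replicate 1 and at 17.4 to 19.1 CPM in the other EPS libraries. Ppard was at 68.7 CPM in EPS replicate 4, against 42.9 to 46.5 CPM in the others. Slc47a2 was at 0.212 CPM in EPS replicate 4, which is 4 reads, against 0.0914 to 0.0974 CPM, or 2 reads, in the others.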

How the results depend on the processing

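Over 18 alternatives, Slc22a23 kept a log2 fold change of 1.68 to 2.26 and was called in 16, and Slc22a4 kept 1.19 to 2.12 and was called in 12. The number of members called was 2, or 1 to 2 with single libraries left out, 1 at P under 0.001 and 0 at an adjusted p under 0.05. Leaving out control replicate 4 turned Slc22a21 to -0.043 and Slc22a15 to -0.049, the lowest values with single libraries left out, against highest values of 0.310 and 0.386. Whether the replicate numbers pair the libraries is not known. Deviations from the group means gave same-numbered r = 0.245, -0.4465 and 0.0679, and -0.465 to 0.586 between different numbers. So few libraries cannot settle it. With the replicate block 0 members and 161 genes over all features were called. EPS replicate 2 has no control of its number, so this fit also takes nothing from it, and leaving it out alone gave 1 member.

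Over all features, 269 genes were called, 209 to 325 with single libraries left out, 601 with a pseudocount of 0.1, 629 by edgeR's quasi-likelihood test, 698 by its exact test, 585 by DESeq2, 106 at P under 0.001 and 27 at an adjusted p under 0.05. Of the calls, 68.8% were higher in EPS, against 51.6% with quantile normalization, 52.8% with median-of-ratios scaling, 52.3% by edgeR's quasi-likelihood test and 54.2% by DESeq2, and among genes averaging at least 1 CPM the median log2 fold change moved from 0.10 to 0.0052 with quantile normalization and -0.0048 with median-of-ratios scaling. Both called members stayed called under these scalings. Among the carnitine, other SLC22, carrier, PPAR and neighbouring genes, 0 were called, 0 to 1 with single libraries left out, 1 (Plg) with a pseudocount of 0.1, and 2 (Cdkn1c and Plg) by each of edgeR's quasi-likelihood test, its exact test and DESeq2. Cdkn1c was the gene called without control replicate 1 and without EPS replicate 1. Depth limits Slc22a3, Slc22a18 and the other SLC22 genes.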
